A study of Mus musculus with 14 samples.

Results

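Regulators of 3 cell fates other than cartilage were followed in the chromatin of a chondrogenic cell line: Pparg, Cebpa and Cebpb for fat, Myod1, Myf5 and Myog for muscle, and Scx, Mkx, Egr1 and Egr2 for tendon. These 10 genes were taken from 21883 protein-coding genes. A peak was assigned to a gene when it overlapped the gene's span, extended by 5 kb on each side, by at least 1 bp. In this way 91 of the 170889 peaks in the 12 lists were assigned to the 10 genes. Chromatin immunoprecipitation with sequencing had been carried out in ATDC5, a mouse line derived from a teratocarcinoma and used as a model of cartilage formation. For differentiation the cells were spotted as droplets and given bGP (the labels' abbreviation) and L-ascorbate-2-phosphate, and undifferentiated cells were kept by passaging. Chromatin was taken on days 0, 3 and 10 and precipitated with an antibody to H3K4me3 or to RUNX2, in 2 libraries per antibody and day. All samples came from this single line and carried no genetic change named in the labels. Whether both libraries of a day were made from separate cultures is not stated, and the differences between them may be technical only. The 2 input libraries were not analysed here.

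H3K4me3, trimethylation of lysine 4 of histone H3, lies at the starts of active genes and of many genes held ready for activation. RUNX2 is a runt-domain transcription factor of bone and of maturing cartilage. Cartilage, tendon, muscle and fat cells can all arise from mesenchymal precursors, and each fate is directed by a small set of transcription factors. PPARγ with C/EBPα and C/EBPβ directs fat cells, MyoD, Myf5 and myogenin direct skeletal muscle, and scleraxis, mohawk and the EGR factors act in tendon.

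The 10 genes fell into 2 classes. Pparg, Cebpa, Cebpb, Scx, Mkx, Egr1 and Egr2 had an H3K4me3 peak in all 6 H3K4me3 lists and a RUNX2 peak in both lists of day 3. Myod1, Myf5 and Myog had no peak in any of the 12 lists. H3K4me3 was therefore called in both libraries at 7 of 10 genes on each day, where 54.8% of all coding genes were called on day 0, 64.3% on day 3 and 59.4% on day 10. RUNX2 was called in both libraries at 0 of 10 genes on day 0 (0.0274% of all coding genes), at 7 of 10 on day 3 (61.1%) and at 0 of 10 on day 10 (0.0183%). With only 10 genes, chosen by hand, these counts are read beside the shares of all coding genes and no further. A peak in all 6 H3K4me3 lists was found at 54.5% of coding genes (7 of the 10), a peak in none of these 6 lists at 28.6%, and a peak in none of the 12 lists at 28.4%. A gene without a peak had none called at the depth of its library, which is unknown here.

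**Figure D1:**
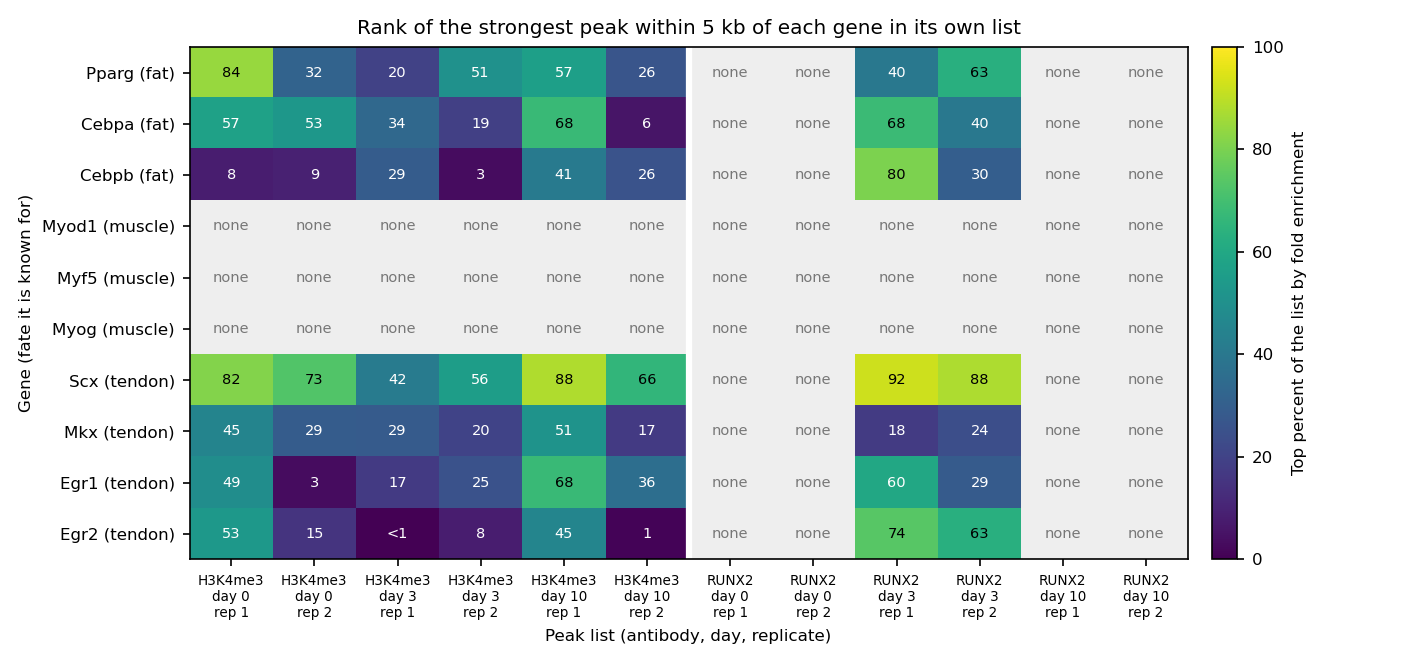
Rank of the strongest peak within 5 kb of each of the 10 genes (rows), as the top percent of its own list by fold enrichment, in each of the 12 lists (columns). "None" marks the absence of a called peak; the 3 muscle genes have none anywhere, and the other 7 genes have none in the RUNX2 lists of days 0 and 10.

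The lists differed in ways that touch every result. The H3K4me3 lists held between 13765 and 29022 peaks, with fewest in replicate 1 of day 0 and replicate 1 of day 10. The RUNX2 lists of day 3 held 19319 and 16859 peaks, and those of the other days between 97 and 108 each. The 2 RUNX2 lists of day 3 also stood apart from the H3K4me3 lists in their summits. Over 17330 overlapping peaks their summits lay a median of 0 bp apart, and 81.4% lay within 5 bp, whereas H3K4me3 summits of the same day lay a median of 103 bp apart and 4.33% lay within 5 bp. RUNX2 summits of days 0 and 10, over 98 and 85 overlapping peaks, were also close. Their medians were 13 and 7 bp, with 25.5% and 48.2% within 5 bp. Of the RUNX2 summits of day 3, 95.0% in replicate 1 and 95.7% in replicate 2 lay inside an H3K4me3 peak of the same day and number. The cause was not tested. Either RUNX2 list of day 3 used alone added no gene of the 10 to the 7 called in both. By the rule those 7 could not drop out, so this says nothing of the summit distances. Of 10 chondrocyte markers (Sox9, Sox5, Sox6, Col2a1, Acan, Col9a1, Col11a1, Matn3, Comp and Hapln1), 6 carried H3K4me3 in both libraries on day 0, with 10 on day 3 and 10 on day 10. Comp and Hapln1 did have a peak in replicate 2 of day 0, with 736 and 236 bases covered, and missed only in its shorter replicate 1 list. The strongest peak at Matn3 was nearest to Wdr35 in every H3K4me3 list.

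Start sequences were matched for part of each class only, so base composition is compared by window and not by class of gene. Of the muscle genes, only Myog and Myf5 were matched, with a single window each. RefSeq windows on GRCm38.p6, of 250 bases before and 50 bases after an annotated start, matched 6 of the 10 genes (Pparg, Cebpa, Cebpb, Egr2, Myog and Myf5) with 12 windows. In the sequences below every CpG dinucleotide is in capitals. The windows printed are examples that lie, wholly or in part, under a peak in every H3K4me3 list (Pparg at its first start, Cebpb, Egr2), in 5 of 6 lists (Cebpa) or under none (Pparg at its last start, Myog, Myf5). Further Egr2 windows also lay under a peak in every H3K4me3 list, and the second Pparg start lay under none. Among these, the printed Egr2 window holds the most CpG (24) and the printed last Pparg window the fewest (2).
Pparg first start, chr6:115360894-115361193, plus strand: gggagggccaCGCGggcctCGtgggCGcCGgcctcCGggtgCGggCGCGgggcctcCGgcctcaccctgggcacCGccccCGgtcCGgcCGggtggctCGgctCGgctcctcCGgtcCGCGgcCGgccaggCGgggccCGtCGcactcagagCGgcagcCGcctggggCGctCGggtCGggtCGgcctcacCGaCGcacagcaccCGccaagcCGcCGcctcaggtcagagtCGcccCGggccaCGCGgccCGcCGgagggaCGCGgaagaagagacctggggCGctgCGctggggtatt
Pparg last start, chr6:115421816-115422115, plus strand: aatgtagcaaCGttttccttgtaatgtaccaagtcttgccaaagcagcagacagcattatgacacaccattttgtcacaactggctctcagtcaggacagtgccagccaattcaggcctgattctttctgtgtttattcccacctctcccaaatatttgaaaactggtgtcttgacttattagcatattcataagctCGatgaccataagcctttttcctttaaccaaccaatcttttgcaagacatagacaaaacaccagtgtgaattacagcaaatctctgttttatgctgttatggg
Cebpa, chr7:35119043-35119342, plus strand: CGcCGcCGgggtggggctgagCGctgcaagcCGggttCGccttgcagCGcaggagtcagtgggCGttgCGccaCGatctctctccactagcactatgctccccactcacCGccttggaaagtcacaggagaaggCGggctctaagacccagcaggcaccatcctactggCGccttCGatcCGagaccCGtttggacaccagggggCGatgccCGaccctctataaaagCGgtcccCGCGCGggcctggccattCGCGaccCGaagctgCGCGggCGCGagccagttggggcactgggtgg
Cebpb, chr2:167688665-167688964, plus strand: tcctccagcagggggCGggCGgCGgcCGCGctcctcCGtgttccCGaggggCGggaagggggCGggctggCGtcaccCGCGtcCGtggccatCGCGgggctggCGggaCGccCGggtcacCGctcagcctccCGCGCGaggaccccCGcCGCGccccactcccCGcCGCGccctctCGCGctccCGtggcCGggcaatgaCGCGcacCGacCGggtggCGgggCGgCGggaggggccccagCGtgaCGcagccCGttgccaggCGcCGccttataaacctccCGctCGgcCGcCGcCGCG
Egr2, chr10:67537316-67537615, plus strand: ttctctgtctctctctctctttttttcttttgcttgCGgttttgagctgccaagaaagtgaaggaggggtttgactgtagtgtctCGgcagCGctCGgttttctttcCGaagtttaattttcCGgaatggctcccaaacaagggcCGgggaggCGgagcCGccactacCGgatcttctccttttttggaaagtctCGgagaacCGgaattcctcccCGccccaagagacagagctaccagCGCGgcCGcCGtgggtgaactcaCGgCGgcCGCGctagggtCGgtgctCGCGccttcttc
Myog, chr1:134289754-134290053, plus strand: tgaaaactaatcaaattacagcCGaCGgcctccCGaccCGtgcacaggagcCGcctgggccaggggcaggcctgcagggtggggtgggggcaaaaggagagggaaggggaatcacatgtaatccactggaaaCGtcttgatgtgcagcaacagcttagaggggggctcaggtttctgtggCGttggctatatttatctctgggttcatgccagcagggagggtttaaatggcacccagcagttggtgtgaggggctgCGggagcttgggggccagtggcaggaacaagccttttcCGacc
Myf5, chr10:107486085-107486384, minus strand: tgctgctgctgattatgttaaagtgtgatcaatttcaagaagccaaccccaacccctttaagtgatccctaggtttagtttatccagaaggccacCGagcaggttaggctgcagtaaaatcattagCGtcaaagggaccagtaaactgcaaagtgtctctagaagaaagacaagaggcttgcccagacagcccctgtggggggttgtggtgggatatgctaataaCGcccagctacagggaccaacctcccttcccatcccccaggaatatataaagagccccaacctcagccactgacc

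Pparg encodes PPARγ, the nuclear receptor that directs fat cell differentiation. Its PPARγ2 isoform, largely restricted to fat cells, is known to start downstream of the more widely used PPARγ1 start. Of 3 annotated start windows, only the first was under a peak: its 300 bases were fully covered in all 6 H3K4me3 lists and in both RUNX2 lists of day 3. The windows at chr6:115362099-115362398 and chr6:115421816-115422115 had 0 bases covered in all 12 lists. The RUNX2 summits of day 3 lay at 115361095 in replicate 1 and 115361099 in replicate 2, both inside the first window printed above. Replicate 1 of day 3 had 3 further H3K4me3 peaks in the last part of the gene and beyond it, with fold enrichments of 4.05 to 6.46, that no other list had. H3K4me3 peaks covered 395 and 1060 bases on day 0, with 2828 and 1377 on day 3 and 938 and 1433 on day 10. Both libraries of day 3 lay above both of day 0, and those of day 10 overlapped the other days.

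Cebpa encodes C/EBPα, which acts with PPARγ in fat cells. Its start window was covered in part or in full in 5 of the 6 H3K4me3 lists, by 300 of its bases in replicate 1 of day 3 and by 132 to 194 in 4 others, and by 0 in replicate 1 of day 0. RUNX2 summits of day 3 lay 944 bases before the start in both libraries, with a second pair 291 and 292 bases inside the gene. Fold enrichment, the authors' value at each summit, was 4.97 and 11.4 at the first site and 4.24 and 9.42 at the second. H3K4me3 peaks at Cebpa covered 1096 and 1675 bases on day 0, with 2925 and 2727 on day 3 and 2402 and 3007 on day 10. Both later days lay above day 0 without overlap, with means of 2826 ± 140 on day 3 and 2704 ± 428 on day 10 against 1386 ± 409 on day 0 (SD, n = 2 each).

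Cebpb encodes C/EBPβ, an early factor of fat cell differentiation that is also used in many other cell types. H3K4me3 covered about the same extent in every list: 3298 and 3117 bases on day 0, with 3184 and 2968 on day 3 and 2745 and 3254 on day 10. Values of different days overlapped in all 3 comparisons, so that Cebpb was the single marked gene of the 7 without separation between day 3 and day 0. It reached from before the lower end of the gene span into the lower end of the neighbouring A530013C23Rik, a long non-coding RNA gene, and had a gap inside Cebpb in replicate 2 of day 0. By width its widest peak was in the top 0.559% of the list in replicate 1 of day 0, and in the top 14.3% in replicate 2, where that gap split it into 2 peaks. The RUNX2 peaks of day 3 covered 2568 and 3249 bases, with summits at 167690111 and 167690110.

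No peak was called near the muscle genes. Myod1 encodes MyoD, which can turn other cell types into muscle, Myf5 encodes an early factor of muscle precursors, and Myog encodes myogenin, which acts in the fusion and maturation of muscle cells. The nearest H3K4me3 peak to Myod1 was 17.2 and 17.8 kb away on day 3 and 17.4 kb away in replicate 2 of day 10, each nearest to Kcnc1, a potassium channel gene. In the other 3 lists it was 260.0 kb away, nearest to Sergef. Around Myf5 the nearest H3K4me3 peak lay between 360.0 and 675.0 kb away, and the nearest RUNX2 peak of day 3 lay 674.0 kb away in both libraries. Around Myog the H3K4me3 distances lay between 39.6 and 68.6 kb, and the RUNX2 distances of day 3 were 40.1 and 54.4 kb. None of these nearest peaks lay at a muscle regulator: beside Myog they were nearest to Ppfia4, Adora1 or Tmem183a, and beside Myf5 to Otogl, Ppfia2 or Ppp1r12a.

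Scx encodes scleraxis, the basic helix-loop-helix factor that marks tendon precursors. Taking the strongest RUNX2 peak of each of the 7 marked genes, that of Scx ranked lowest in both libraries, with fold enrichments of 3.24 and 4.24 that stood in the top 92.3% and 87.8% of their lists. The RUNX2 summits lay 402 and 418 bases inside the gene. A second pair lay 3657 and 3658 bases from its lower end, which is 1600 and 1601 bases beyond its upper end. H3K4me3 at Scx ranked in the lower part of most lists: the strongest peak stood in the top 81.6% and 72.9% on day 0, with 41.6% and 55.5% on day 3 and 88.0% and 65.8% on day 10. Its fold enrichment was 4.14 and 5.11 on day 0, with 14.4 and 6.16 on day 3 and 4.58 and 4.86 on day 10. Within the Scx window H3K4me3 peaks covered 850 and 225 bases on day 0, with 4862 and 1707 on day 3 and 289 and 2345 on day 10. Day 3 lay above day 0 without overlap, but the 2 libraries of day 3 differed by more than those of day 0, and of those of day 10, 1 lay between the values of day 0 and 1 above both. Mroh1 and Bop1 share the window around Scx, and all its peaks were nearest to Scx by the distance from summit to gene ends. That distance takes no account of a gene whose span holds the peak, so the peaks cannot be assigned to Scx alone.

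Mkx encodes mohawk, a homeobox factor of tendon. Among the RUNX2 peaks of the 10 genes, those of Mkx ranked highest, in the top 17.5% and 24.2% of their lists, with fold enrichments of 8.59 and 13.2. Their summits lay 417 and 418 bases inside the upper end of the gene span, 1 base apart. A second H3K4me3 site, between 2947 and 3099 bases inside the same end, was called in both libraries of day 3 and in replicate 2 of day 10. In all, 962 and 1388 bases lay under H3K4me3 peaks on day 0, with 3657 and 1896 on day 3 and 1252 and 1988 on day 10. Day 3 lay above day 0 without overlap, and day 10 overlapped both.

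Egr1 encodes a zinc finger factor that is induced within minutes by many stimuli and acts in tendon. It had 2 RUNX2 sites on day 3. The summits of the first lay 1533 bases before the lower end of the gene span and those of the second 200 bases inside it, and in each pair the 2 libraries had the same summit. Fold enrichments were 2.95 and 6.63 at the first site and 5.57 and 12.7 at the second. At Egr1 1170 and 2398 bases lay under H3K4me3 peaks on day 0, with 3408 and 2696 on day 3 and 2171 and 3294 on day 10. Both libraries of day 3 lay above both of day 0, and day 10 overlapped both.

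Egr2, a related zinc finger gene that acts in tendon, in nerve sheath cells and in hindbrain segments, had the highest ranking H3K4me3 peak of the 10 genes. In replicate 1 of day 3 its fold enrichment was 43.7 and its rank 15 of 28653 peaks, the top 0.0524%. In replicate 2 of day 3 it stood in the top 7.95%. The libraries of day 10 differed, with the top 45.4% in replicate 1 and the top 1.17% in replicate 2. In the lists of day 0 the strongest peak stood in the top 53.4% and 15.1%. The bases under H3K4me3 peaks numbered 1426 and 3320 on day 0, with 4295 and 4105 on day 3 and 2118 and 4102 on day 10. Day 3 lay above day 0 and also above day 10 without overlap, but the lowest value of day 3 and the highest of day 10 were 3 bases apart. The difference of means, day 10 minus day 3, was -1090.0 bases, and it was -98.0 when replicate 1 of day 10 was left out and -2082.0 when its replicate 2 was. Of the 4295 bases in replicate 1 of day 3, 107 belonged to a peak whose nearest gene was Ado. The RUNX2 summits of day 3 lay at 67537171 in both libraries, and the RUNX2 peaks of both libraries covered the Egr2 window printed above in full.

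**Figure D2:**
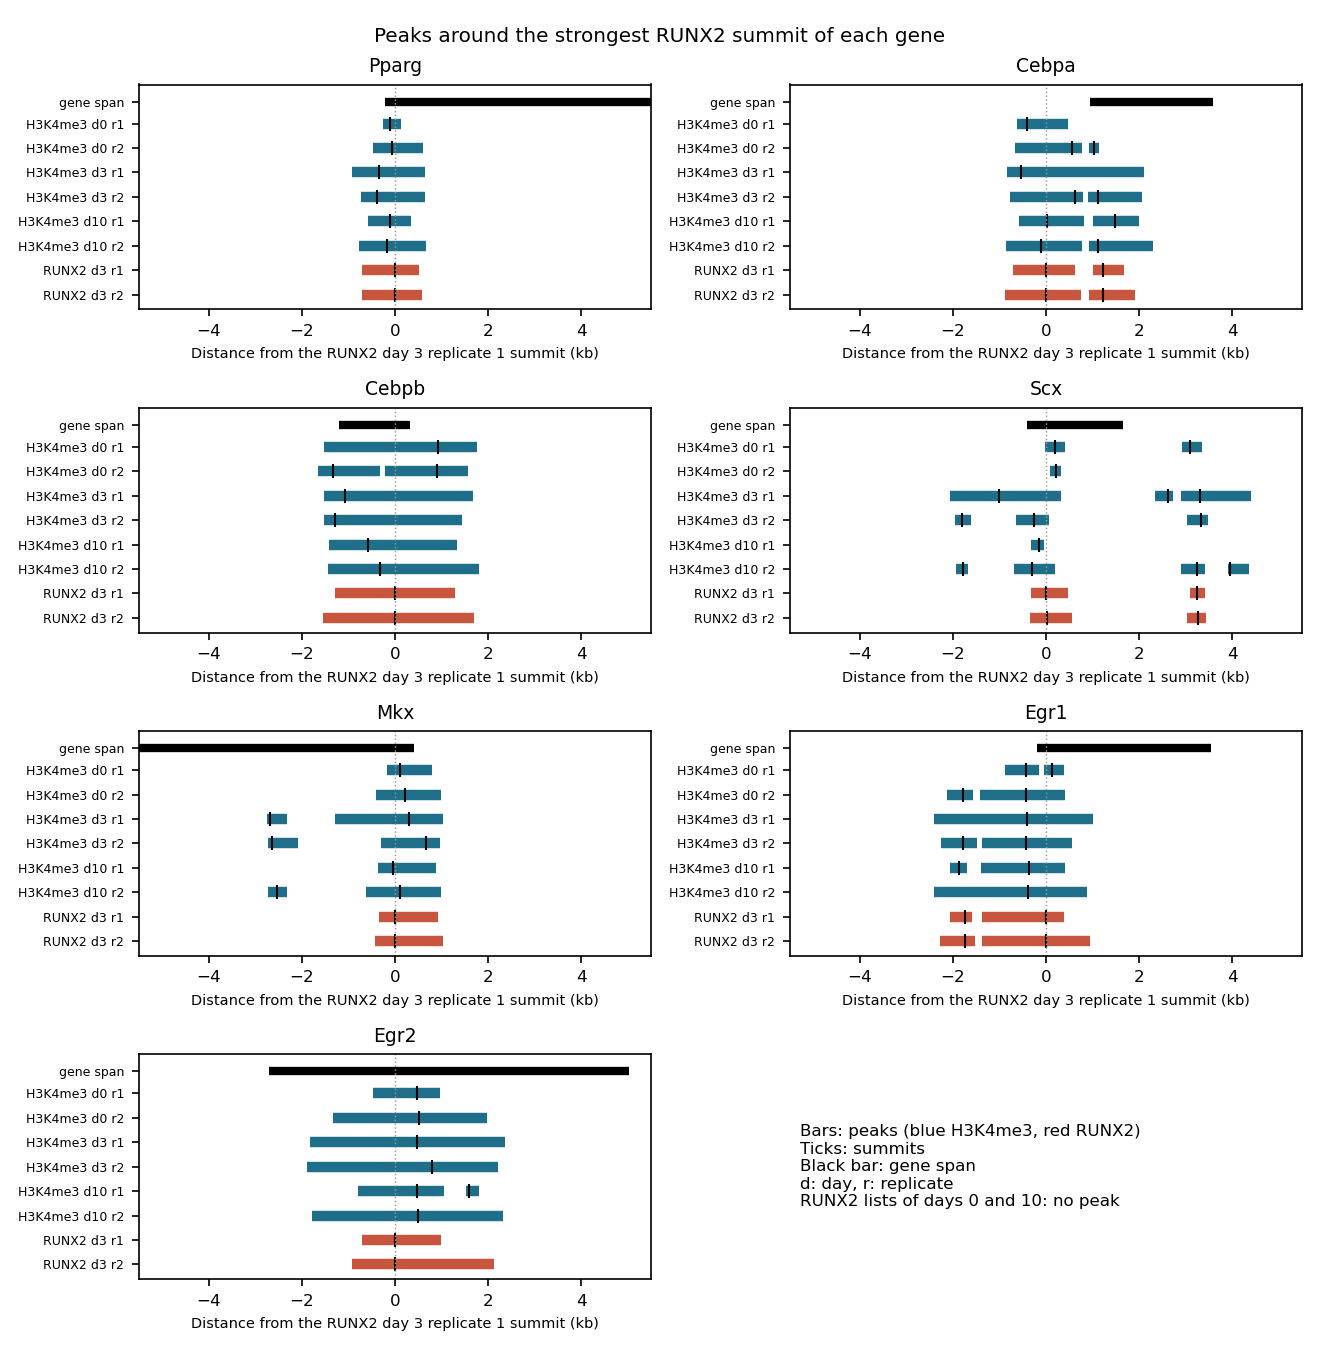
Peaks at the 7 marked genes, by distance (kb) from the strongest RUNX2 summit of day 3 replicate 1; bars are peaks, ticks summits and black bars the gene spans. The RUNX2 summits of the 2 libraries coincide or nearly so, and H3K4me3 peaks surround them in most lists. At Scx the H3K4me3 peaks are scattered, and mostly short except in replicate 1 of day 3, where the widest has 2375 bases.

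In the 10 pairs of RUNX2 peaks at these genes the summits of the 2 libraries lay 0 to 16 bases apart. They were 0 or 1 base apart in 8 pairs, and within 5 bp in 9. All 10 pairs had both summits inside an H3K4me3 peak of both day 3 libraries. Over all genes with H3K4me3 in both libraries of day 3, 94.4% had a RUNX2 peak in both libraries, and among genes without H3K4me3 in either library 0.237% had one. The 7 marked genes and the 3 muscle genes stand on the same side as most genes of their class.

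No gene of the 10 gained or lost H3K4me3 between days when its whole window was counted. A gain was any peak in the window in both libraries of the later day and none in either of the earlier day. Genes marked in all 6 lists or in none could therefore show neither. Single sites did appear: the second H3K4me3 site of Mkx was called in both libraries of day 3 and neither of day 0. The same held for a site at Scx with summits 4711 and 4486 bases beyond its upper end. Against day 0, day 3 brought a gain at 3.23% of coding genes and a loss at 0.00914%. Against day 3, day 10 brought a gain at 0.0457% and a loss at 0.576%, and against day 0 it brought a gain at 1.11% and a loss at 0.00914%. Among the 10 genes the count was 0 in each of these.

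The bases under H3K4me3 peaks were higher on day 3 than on day 0 without overlap at 6 of 10 genes, where 52.6% of all coding genes and 81.1% of those with a peak in all 6 lists were. Those 6 were Pparg, Cebpa, Scx, Mkx, Egr1 and Egr2. With 2 libraries against 2 an exact permutation test cannot go below a two-sided p of 0.333, and these 6 comparisons stood at that value. The differences of means lay between 1268 bases at Egr1 and 2747 bases at Scx. Their size depended on single libraries. Without replicate 1 of day 3 the difference was 1169.5 bases at Scx, 649.5 at Pparg and 721.0 at Mkx, and with replicate 2 left out instead it was 4324.5, 2100.5 and 2482.0 at the same genes. Without replicate 1 of day 0 it was 654.0 at Egr1 and 880.0 at Egr2, where leaving out the other library of that day gave 2774.0. With equal numbers of top peaks from every list, 4 of the 6 genes kept the separation, and the difference was 320.0 bases at Scx and 612.5 at Mkx, where the days then overlapped. Lower values on day 3 without overlap were found at 0 of the 10 genes (0.0503% of all coding genes, 0.0671% of those with a peak in all 6 lists). Egr2 was the 1 gene lower on day 10 than on day 3 without overlap, where 13.6% of all coding genes and 19.7% of those with a peak in all 6 lists were, and 0 genes were higher (0.306% and 0.218%). Cebpa was the 1 gene higher on day 10 than on day 0, where 14.4% and 21.5% were, and 0 genes were lower (0.206% and 0.344%). Across the genes with a peak in all 6 lists, a median of 1384 and 1784 bases lay under peaks on day 0, with 2555 and 2121 on day 3 and 1548 and 2349 on day 10. On each day the library with the longer H3K4me3 list had the higher median, and this order held on all 3 days at 5 of the 7 marked genes, with Cebpb and Scx as the exceptions.

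**Figure D3:**
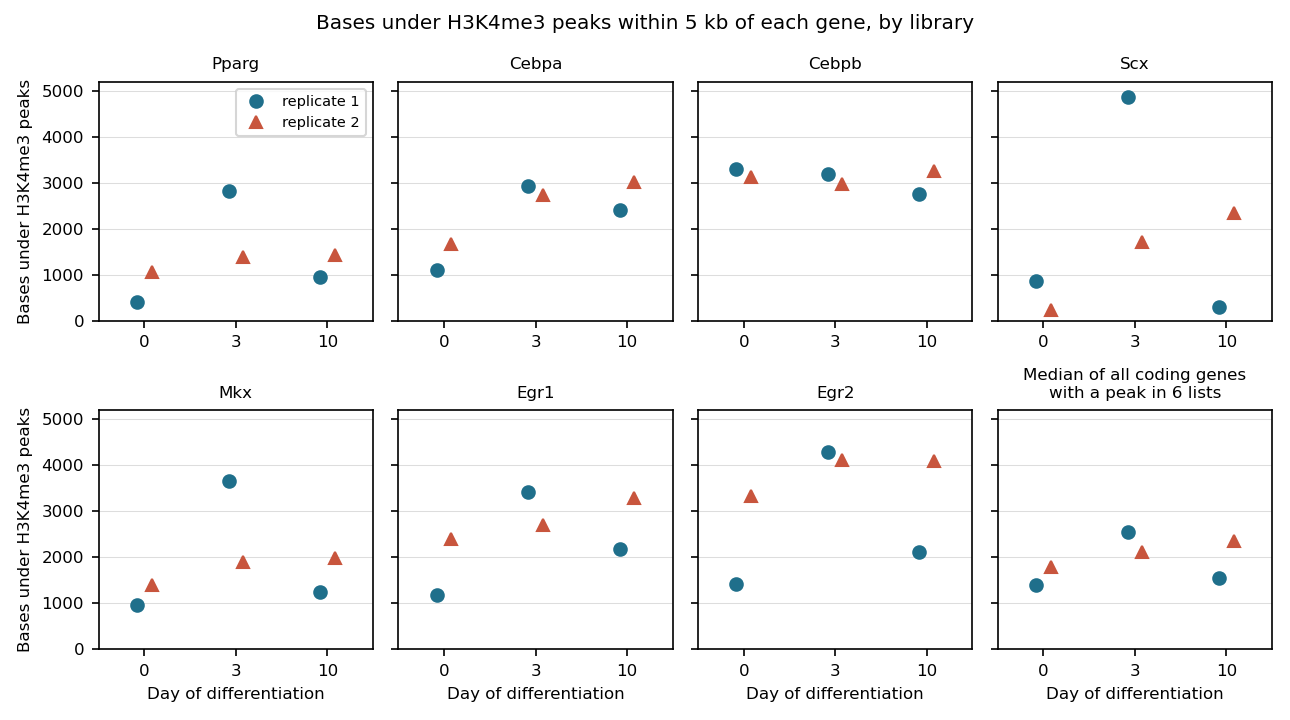
Bases under H3K4me3 peaks within 5 kb of each of the 7 marked genes, by day, with a point per library, and in the last panel the median over coding genes with a peak in all 6 lists. Day 3 lies above day 0 in each panel except that of Cebpb, and at day 10 the 2 libraries are spread widely at Scx and Egr2.

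CpG content of the windows at starts differed between those with and without H3K4me3. The ratio of observed to expected CpG (the number of CpG times the length, over the product of the numbers of C and G) was 0.91 at the first start of Pparg, 0.85 at Cebpa, 1.03 at Cebpb and between 0.68 and 1.0 at the 5 windows of Egr2. All these windows were covered at least in part in both H3K4me3 libraries of day 3. The Egr2 window at 0.83 had no covered base in either H3K4me3 library of day 0, in replicate 1 of day 10 or in any RUNX2 list. The Egr2 windows at 0.68, 0.7 and 0.71 overlap each other and are not separate sites. The ratio was 0.47 and 0.17 at the other 2 Pparg starts, 0.37 at Myog and 0.16 at Myf5, and these 4 windows had no covered base in any list. Over all 32851 windows the median was 0.79 in the 13000 with H3K4me3 in both libraries of day 3 and 0.21 in the 18936 with none. H3K4me3 of day 3 was found at 91.5% of windows above 0.75 and at 67.8% of those from 0.5 to 0.75. It was found at 18.4% of those from 0.25 to 0.5 and at 3.23% of those up to 0.25. RUNX2 of day 3 was found at 86.6%, 63.1%, 15.8% and 2.32% of the same classes.

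**Figure D4:**
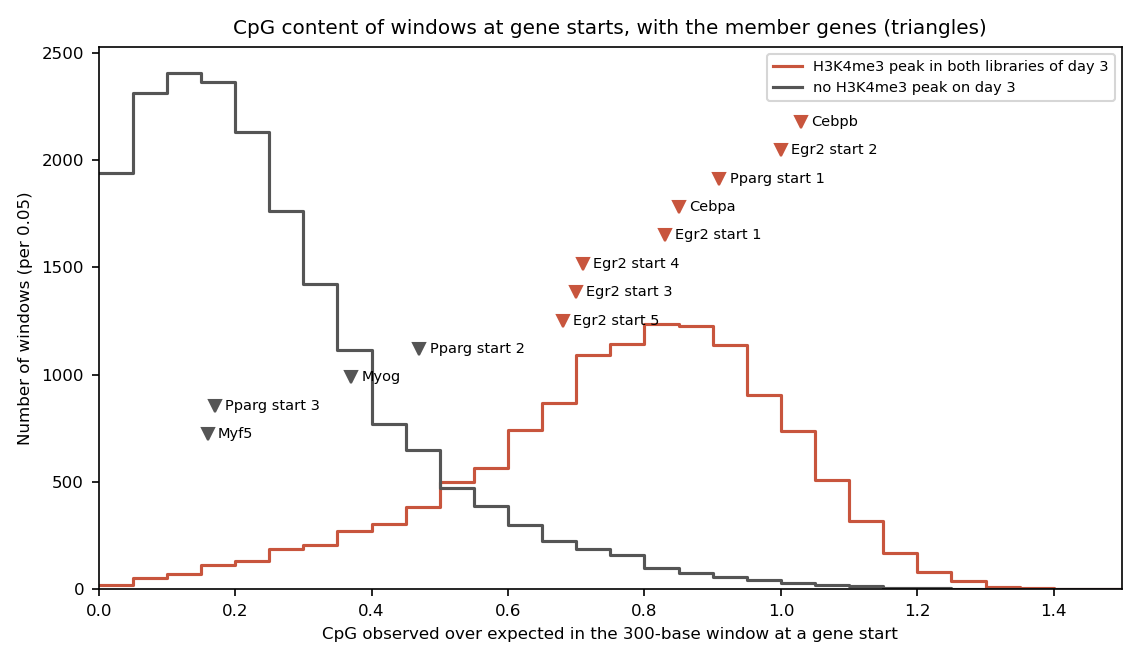
Number of 300-base windows at gene starts (per 0.05 of the ratio) by observed over expected CpG, for windows with and without H3K4me3 on day 3; triangles, at arbitrary heights, are the windows of the genes described, in the colour of their own state. Red triangles, at 0.68 and above, lie under the right-hand distribution, and grey triangles at 0.47 and below.

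Short motifs were counted in these windows on both strands. TGTGGT, the core of the RUNX motif, was in 16.8% of all windows and, of the 12 windows of the 6 genes, only in that of Myf5, which had no RUNX2 peak. CAGCTG, a form of the E-box bound by the MyoD family, was in 16.3% of all windows and in none of the 12. TATAAA was in 13.6% of all windows, and of the 12 it was in those of Cebpa, Cebpb and Myf5 and, on the other strand, in the second start of Pparg. CAGCTG reads the same on both strands, and none of the 3 motifs contains another. These are matches of letters in windows of 300 bases and say nothing of binding.

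Companion genes of each fate were examined in 7 further lists of 130 entries (129 distinct genes, Mef2c being in 2), which hold the 10 genes too. The regulator lists were not limited to genes that act in a single fate. That of muscle includes Tcf3, Tcf12, Id1, Id3 and Twist1. That of tendon includes Srf, Elk1, Nab1, Nab2, Tgif1 and Tcf4, all named here after their values were seen. Of 18 fat regulators, 15 carried H3K4me3 in both libraries on day 0, with 18 on day 3 and 17 on day 10. Of 20 fat cell products, 9, 10 and 10 did, and 7 had no H3K4me3 in any list. Among these were Adipoq, the hormone adiponectin, Cfd, the protease adipsin, and Fabp4, the fatty acid binding protein of fat cells. Cidec, named after its values were seen, was called, but its strongest peak was nearest to Rpusd3 in all 6 lists.

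Of 18 muscle regulators, 12 carried H3K4me3 on each day, and the 4 without H3K4me3 in any list were Myod1, Myf5, Myog and Myf6, the 4 members of the MyoD family. Of 20 muscle products 3, 5 and 4 carried the mark, and 11 had none in any list, Acta1, Actc1 and Atp2a1 among them, which encode the muscle actins and a calcium pump. Mb, which encodes myoglobin, gained a peak on day 3 by the rule, with 1653 and 663 bases on day 3 against 0 and 0 on day 0, but the nearest coding gene to that peak was Apol6. The 3 products called on day 0 were Casq1, Mylpf and Mymx, named after their values were seen, and on that day the strongest peak of each was nearest to another gene (Pea15a, Tbc1d10b and Slc29a1). Of the 5 called on day 3, only Chrna1, a subunit of the muscle acetylcholine receptor, was the nearest gene in both libraries.

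Of 18 tendon regulators 17 carried H3K4me3 on each day and only Fgf4, a growth factor gene, had none. Of 20 tendon products 12, 14 and 12 did. A peak was called in no list at Kera and Lum, which encode small proteoglycans, or at Mfap5, which encodes a microfibril protein. Thbs4 and Tnmd, named after their values were seen, had none either, and Tnmd encodes tenomodulin, a surface protein of tendon cells. Fmod, encoding the collagen-binding fibromodulin, gained a peak on day 3, with 3209 and 1489 bases against 0 and 0 on day 0. RUNX2 of day 3 was found in both libraries at 18 of 18 fat regulators, 12 of 18 muscle regulators and 17 of 18 tendon regulators. The share was 61.1% over all coding genes and 94.4% over those with H3K4me3 in both libraries of day 3. Of 16 cartilage regulators, 14 carried H3K4me3 on day 0, with 16 on day 3 and 16 on day 10, and 15 had RUNX2 in both libraries of day 3. The exception was Barx2, a homeobox gene, named after its values were seen. Regulators shared the limit of neighbouring genes, shown here by cases also named after their values were seen. In every H3K4me3 list the strongest peak was nearest to Supt3 for Runx2, to Sympk for Foxa3 and to Mnat1 for the muscle regulator Six4.

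**Figure D5:**
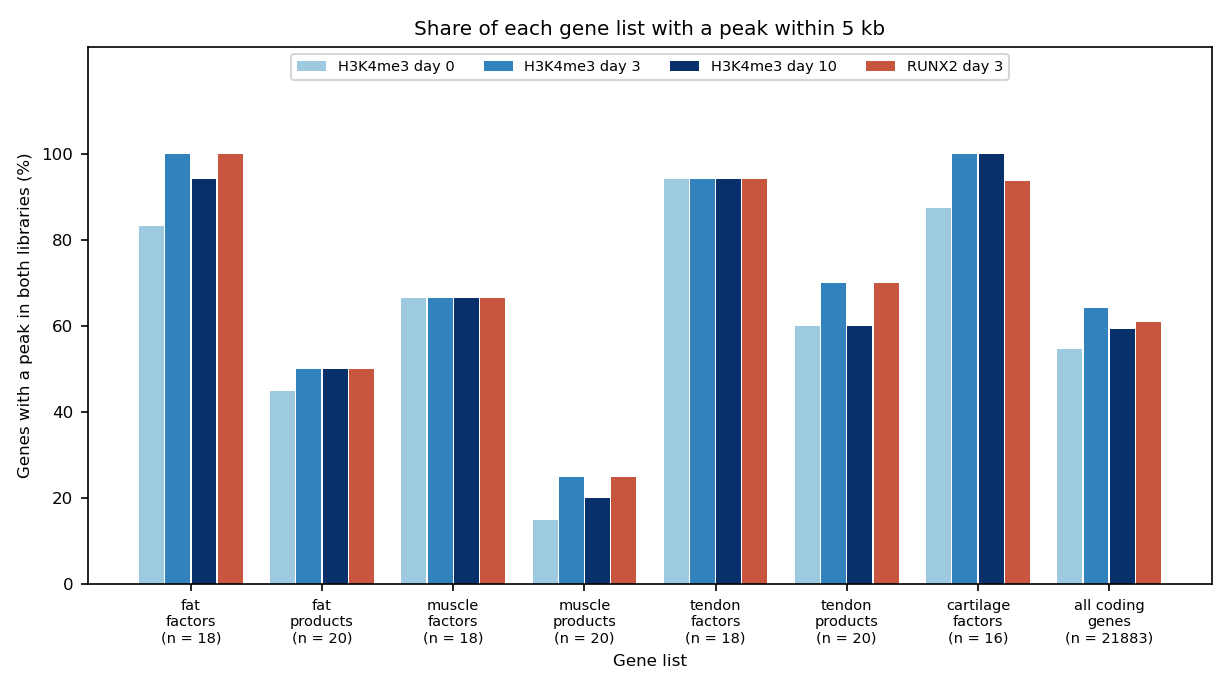
Percent of the genes of each list for which both libraries of a day had a peak, for H3K4me3 on days 0, 3 and 10 and RUNX2 on day 3; the last group gives all coding genes. Regulator lists of fat, tendon and cartilage stand above all coding genes, and the fat and muscle products stand below them. Muscle regulators and tendon products stand above them by less, with muscle regulators at 66.7% against 54.8% for H3K4me3 on day 0.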

How the data were processed

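The deposited files were 12 narrow-peak lists, 1 per library, from chromatin immunoprecipitation with sequencing of RUNX2 and H3K4me3. The submitters' processing notes name HISAT2 2.2.0 and MACS2, after FastQC and Trim Galore. Settings, duplicate removal and any use of the input as a control: not given in the sources used here. In the deposited lists the score follows the −log10 q-value, and the fold enrichment is a linear ratio at the summit; the −log10 p-value was deposited by the authors as well. Score, fold and −log10 values were used only within a list, to describe, rank or filter peaks. Read numbers are unknown for every library, so no interval or floor was computed.

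The notes name GRCm39, but the coordinates fitted GRCm38: between 38.4 and 70.7% of H3K4me3 summits lay within 1 kb of a GRCm38 gene start, and between 3.64 and 4.26% after a shift of 20 kb. Lists were read as GRCm38. Repeated lines for 1 region were reduced to the line of largest fold, and peaks on assembled chromosomes were used. Genes came from a RefSeq table of GRCm38.p6. Covered bases are bases of the window under at least 1 peak, and depend on how many peaks a list holds. Mean covered bases of 2 days were tested by exact permutation, two-sided. No test was made over the 10 genes. All 10 genes were named throughout, with genes sharing a peak and, of companion lists, genes that gained or lost a peak and up to 3 without one. The members and lists were chosen with earlier results of these data known. Alternatives were other windows, a stricter q limit, equal numbers of top peaks, other overlap rules, leaving out each library and pairing by replicate number. Scripts were tested on simulated data and ran in Python 3.11.15 with numpy 2.4.6, pandas 2.3.3 and matplotlib 3.10.9.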

Additional observations from a re-analysis of the deposited data

How the results depend on the processing

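Of 417 alternative values, 15 counts of genes moved by more than 1.5 times or to or from 0, and 10 differences in covered bases turned. Of the 221 differences that kept their direction, 153 stayed within 1.5 times of the reported value and 68 did not. The count of genes with H3K4me3 in both libraries was 7 on each day under the alternatives tried, except that equal numbers of top peaks gave 6 on each day, without Scx. The count with RUNX2 on day 3 was 7 under every alternative except the same one, which left 97 peaks per list and a count of 0. The count with more covered bases on day 3 than on day 0 without overlap was 6 whichever library was left out. Leaving out a library cannot break a separation that all libraries show, so only a rise in the count was possible. The same holds for the counts of genes with a peak in both libraries. The count with more covered bases was 5 with the stricter q limit (without Mkx). It was 4 with equal numbers of top peaks (without Scx and Mkx).

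With a window of 1 kb, 1 gene had fewer covered bases on day 3 than on day 0, 2 had fewer on day 10 than on day 3 and 1 had fewer on day 10 than on day 0. In that window the difference of day 3 minus day 0 was 1044.5 bases at Scx, 587.5 at Egr1 and 901.0 at Pparg, and with equal numbers of top peaks it was 746.0 at Pparg. With a window of 10 kb, 0 had fewer on day 10 than on day 3. Leaving out 1 library gave these ranges: fewer on day 3 than on day 0, 0 to 1; more on day 10 than on day 3, 0 to 2; fewer on day 10 than on day 3, 1 to 7, with 7 when replicate 2 of day 10 was dropped and 5 when it was replicate 2 of day 3; more on day 10 than on day 0, 1 to 6, with 6 when replicate 1 of day 10 was dropped, 5 for replicate 2 of day 0 and 2 for its replicate 1; fewer on day 10 than on day 0, 0 to 1. The cause was not tested.

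The direction of 10 differences in covered bases turned. With equal numbers of top peaks, day 10 minus day 0 became -425.0 at Scx. Leaving out 1 library gave, for day 10 minus day 3, a range of -424.0 to 181.0 at Cebpa, of -331.0 to 178.0 at Cebpb (31.5 without replicate 1 of day 3) and of -881.0 to 242.0 at Egr1 (36.5 without replicate 1 of day 3). For day 10 minus day 0 it gave a range of -462.5 to 46.5 at Cebpb, of -248.5 to 1807.5 at Scx and of -255.0 to 1729.0 at Egr2 (-210.0 without replicate 1 of day 0). The highest of these came without replicate 1 of day 10 and the lowest without its replicate 2. None of these was past a threshold, because no p could be below 0.333.

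The labels number the libraries of each day 1 and 2. The deviations of same-numbered libraries correlated at -0.0022 between days 0 and 3, 0.31 between days 0 and 10 and -0.25 between days 3 and 10. These values cannot show whether same-numbered libraries share more than a number. With a replicate block the difference at Egr2, day 3 minus day 0, stayed 1827 bases with an exact sign-flip p of 0.5, the smallest such a pairing allows. Unknown read depth limits every absence reported, and covered bases move with list length.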
